A study of Mus musculus with 12 samples.

Results

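Expression of 5 genes known from the thick ascending limb of the loop of Henle was followed in macula densa cells of the mouse kidney: Umod, Egf, Ppp1r1a, Tmem72 and Sorl1. They were found by their gene symbols in a table of RNA sequencing counts, and all 5 of 5 were among its 23378 genes and passed the filter on low counts. The question was how far macula densa cells keep the thick ascending limb programme, with and without a stimulus that activates them. The table held 12 libraries of cells sorted from the kidney cortex of C57BL/6 mice that carried an inducible Cre recombinase (CreERT2) driven by the neuronal nitric oxide synthase gene, together with the mTmG reporter. Cells in which Cre had acted made membrane GFP and were sorted as macula densa cells, and all other kidney cells made membrane tdTomato. The brightest tdTomato cells were sorted as control cells, intended to stand for distal tubule and collecting duct epithelium. Both sorts carried the same alleles. For 14 days the animals ate a control diet, or a low salt diet while enalapril, which blocks angiotensin-converting enzyme, was dissolved in the water they drank at 150 mg per litre. This gave 2 macula densa libraries and 4 control cell libraries on the control diet. It also gave 2 macula densa libraries and 4 control cell libraries on low salt with enalapril. No group was of thick ascending limb cells alone, so levels could be set only against the control cells and not against that segment itself. The labels give neither the age of the animals nor whether each library came from a separate animal, so every p-value measures the spread between these libraries, which may be technical.

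The thick ascending limb takes up sodium, potassium and chloride through the cotransporter NKCC2 (Slc12a1) and dilutes the urine. It also releases proteins into the urine, above all uromodulin and the epidermal growth factor. The macula densa is a plaque of salt-sensing cells in the same tubule where it touches its own glomerulus. Its cells also use NKCC2, but signal to the glomerular arteriole and to the renin cells. Immunostaining studies have described uromodulin as weak or missing in macula densa cells.

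Umod encodes uromodulin, a membrane-anchored protein that is cut at the cell surface and forms filaments in the urine (ENSMUSG00000030963.6, GRCm38 chr7:119462711-119479282). Egf encodes the membrane-bound precursor of epidermal growth factor, made in the thick ascending limb and in the early distal convoluted tubule (ENSMUSG00000028017.7, chr3:129677565-129755316). Ppp1r1a encodes inhibitor 1 of protein phosphatase 1, which acts once protein kinase A has phosphorylated it (ENSMUSG00000022490.7, chr15:103530279-103538003). Tmem72 encodes a membrane protein of the kidney (ENSMUSG00000048108.13, chr6:116679063-116716913). Sorl1 encodes a sorting receptor of the VPS10 family that moves cargo between the Golgi and endosomes (ENSMUSG00000049313.8, chr9:41964720-42124297). All 5 are protein-coding genes on the minus strand. Umod, Egf and Sorl1 overlap antisense genes, and whether the counting used strand is not given in the sources used here. The only antisense genes over Egf with rows in the table, Gm42697 and 6330410L21Rik, reached at most 0.57 and 4.56 CPM (the standard normalisation of counts to library size, here with library totals scaled by the TMM method).

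Upstream sequence was printed for Umod and Egf, the 2 secreted genes, which correlated least with Slc12a1 over the 12 libraries. Each run is the 250 bases before the RefSeq start in GRCm38.p6, 5′ to 3′ on the minus strand, at chr7:119479263-119479512 for Umod and chr3:129755323-129755572 for Egf. For Egf, which has 2 starts in that table, the start nearest to the GENCODE gene start was used. The element of estrogen-related receptors, AAGGTCA, was searched on both strands (reverse complement TGACCTT), and a match would stand in capitals.

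Umod: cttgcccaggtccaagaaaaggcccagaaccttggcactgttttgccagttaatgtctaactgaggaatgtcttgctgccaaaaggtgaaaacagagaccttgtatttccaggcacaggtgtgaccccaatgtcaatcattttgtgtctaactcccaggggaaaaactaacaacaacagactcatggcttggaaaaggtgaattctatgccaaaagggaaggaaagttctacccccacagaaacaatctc

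Egf: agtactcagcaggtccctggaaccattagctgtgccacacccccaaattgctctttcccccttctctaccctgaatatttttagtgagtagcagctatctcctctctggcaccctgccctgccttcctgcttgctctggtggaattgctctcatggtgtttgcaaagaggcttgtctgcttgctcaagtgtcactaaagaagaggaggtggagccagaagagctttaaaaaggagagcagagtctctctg

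Of the 5 genes and Slc12a1, 5 had an entry in the promoter table, and none of these windows held the element, which stood in 1340 of 32851 windows of the same length (4.08%). The absence says only that these letters are not in the window. The base composition ranged from 39.6% G and C for Slc12a1 to 69.6% for Sorl1, with 45.2% for Umod and 50.4% for Egf, around a median of 52.4% over all windows.

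The libraries held 4259034 to 14856540 counts, of which 781241 to 2331458 fell on nuclear protein-coding genes, and Gm42418, a row that collects ribosomal RNA, took 53.5% to 65.0%. The labelled sort was checked with Nos1, which stood at 100 to 232 CPM in the 4 macula densa libraries and at no more than 0.734 CPM in the 8 control cell libraries. The control cells held RNA of other cells than those intended. The summed level of 6 endothelial markers ran from 41.0 to 1450 CPM there, against 13.3 to 161 CPM in macula densa cells. That of 5 podocyte markers ran from 38.6 to 1250 CPM against 4.43 to 138 CPM. The macula densa libraries held RNA of other cells too. On the control diet, 8 proximal tubule markers summed to 121 to 197 CPM there, against 34.1 to 83.1 CPM in control cells. On low salt with enalapril they summed to 37.7 to 83.5 CPM against 9.45 to 58.5 CPM. The share of neighbouring thick ascending limb cells in the macula densa sort was not measured, and Nos1 does not show it. The 7 distal convoluted and connecting tubule markers, cells that also make Egf, summed to 134 to 854 CPM in control cells on the control diet and 218 to 337 CPM on low salt with enalapril, and to 324 to 540 CPM and 485 to 587 CPM in macula densa cells. Control cell library 4 on the control diet stood apart, with a correlation as low as 0.788 with its group, and it held the highest levels of Umod, Egf, Ppp1r1a, Tmem72 and Sorl1 in that group. In bulk samples, fewer cells of a type and less RNA per cell cannot be told apart.

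Macula densa libraries on the control diet held the transcripts of all 5 genes, and of the secreted genes at levels close to the most abundant messages of the library. Any part that came from other cells in the sort was not measured. Compared per kilobase of exons, Slc12a1 led with 329 ± 31.6 CPM per kilobase (SD, n = 2), followed by Umod with 168 ± 33.1, Egf with 101 ± 28.2, Ppp1r1a with 66.9 ± 6.35, Sorl1 with 13.7 ± 0.53 and Tmem72 with 10.05 ± 1.62. The libraries of neighbours in that order did not overlap. The place of Egf rested on the exon length used: with the longest transcript in place of all annotated exons, Egf stood at 240 CPM per kilobase and Umod at 177. The low place of Tmem72 rested on its long annotation, 17177 bases of exons and 17152 in the longest transcript. Before division by length its mean was 173 CPM, above Sorl1 at 155 CPM and Ppp1r1a at 87.3 CPM. Among 12403 protein-coding genes ranked by this level, Umod was 25th and 27th in the 2 macula densa libraries on the control diet. Egf was 29th and 39th and Ppp1r1a 49th and 50th, whereas Sorl1 was 272nd and 289th and Tmem72 375th and 521st.

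The order differed in the other groups. In macula densa cells on low salt with enalapril, Slc12a1 again led with 337 ± 16.8 CPM per kilobase (SD, n = 2), and Umod with 49.5 ± 14.5 and Ppp1r1a with 43.5 ± 4.62 had overlapping libraries. Egf stood at 12.7 ± 1.10, Sorl1 at 10.5 ± 1.63 and Tmem72 at 9.22 ± 0.44, the last 2 overlapping. In control cells on the control diet, Umod led with 55.5 ± 46.7 CPM per kilobase (SD, n = 4), and Egf with 32.6 ± 27.8 and Slc12a1 with 27.5 ± 22.5 followed. With the longest transcript, Egf led there with 77.1 CPM per kilobase against 58.4 for Umod. In control cells on low salt with enalapril, Umod stood at 86.4 ± 69.8, Slc12a1 at 42.8 ± 21.9, Ppp1r1a at 10.1 ± 3.47, Egf at 7.60 ± 2.72, Sorl1 at 6.38 ± 2.23 and Tmem72 at 2.37 ± 1.28, and the longest transcript placed Egf, at 18.0, above Ppp1r1a. Umod was thus above Slc12a1 per kilobase in the mean of both control cell groups and below it in both macula densa groups, although within the control cells the libraries of the leading genes overlapped.

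**Figure D1:**
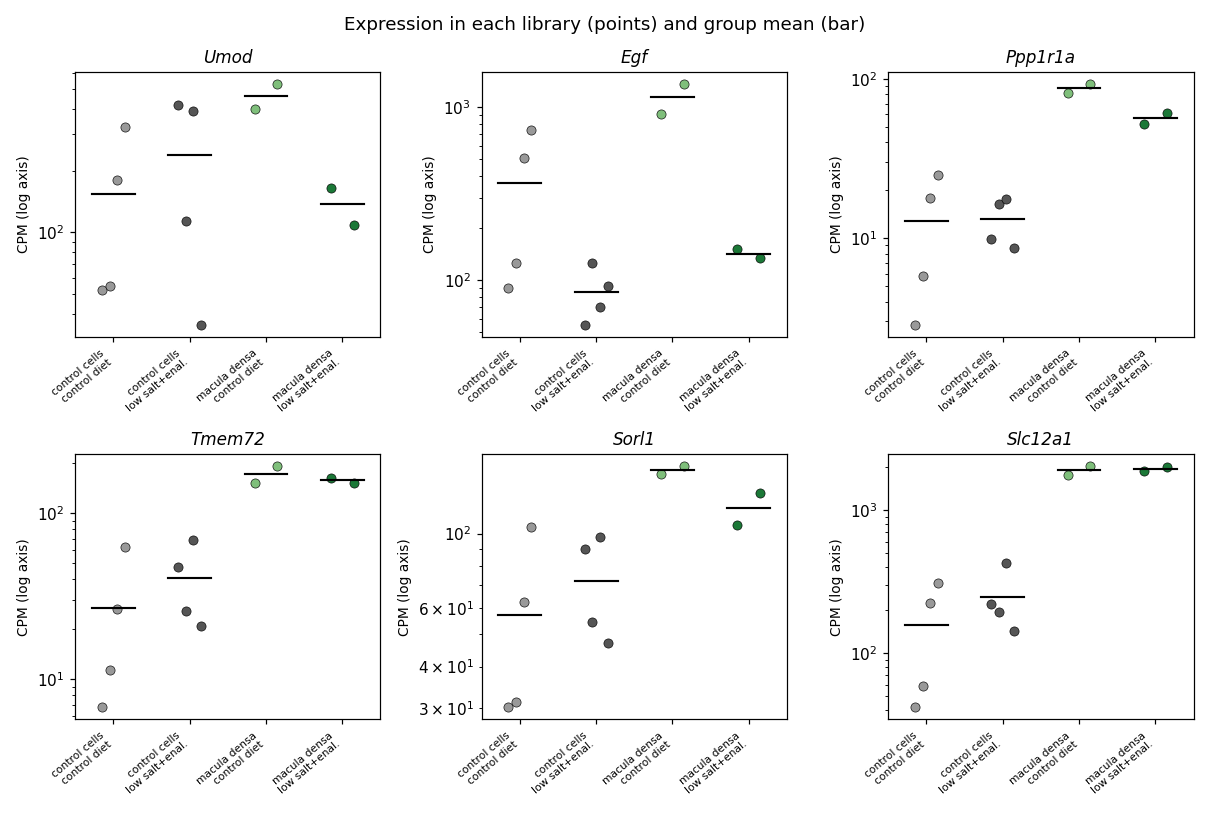
Level of the 5 genes and of Slc12a1 in each library, in CPM on a log axis, by group; points are libraries and bars are group means. Ppp1r1a, Tmem72, Sorl1 and Slc12a1 were higher in all 4 macula densa libraries than in all 8 control cell libraries, while Umod and Egf overlapped when both diets were pooled.

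Across cell types on the control diet, all 5 genes were higher in macula densa than in control cells in every library, but only the phosphatase inhibitor Ppp1r1a and the membrane protein Tmem72 passed the test. Umod, the main secreted product, and Egf were about 3-fold higher with wide errors. Slc12a1 was 12-fold higher.

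For uromodulin, the 4 control cell libraries stood at 52.7, 54.9, 180 and 325 CPM and the macula densa libraries at 399 and 528 CPM. Both macula densa libraries lay above all controls, by little in the case of the highest control. The log2 fold change was 1.60 (SE 0.83, edgeR adjusted p = 0.266). Egf stood at 89.9, 127, 512 and 739 CPM in control cells and at 916 and 1365 CPM in macula densa cells, again without overlap. Its log2 fold change was 1.64 (SE 0.65, edgeR adjusted p = 0.146).

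Ppp1r1a stood at 2.84, 5.83, 17.8 and 25.1 CPM in control cells and at 81.5 and 93.2 CPM in macula densa cells. The lower macula densa library held over 3 times the level of the highest control library. The log2 fold change was 2.76 (SE 0.60), or 6.76-fold, and passed the test (edgeR adjusted p = 0.0198). Tmem72 stood at 6.78, 11.4, 26.7 and 62.3 CPM against 153 and 192 CPM. These groups were well apart too, with a log2 fold change of 2.69 (SE 0.67), or 6.44-fold (edgeR adjusted p = 0.0362).

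Sorl1, the sorting receptor, had control libraries at 30.2, 31.4, 62.3 and 105 CPM and macula densa libraries at 151 and 159 CPM. It gave a log2 fold change of 1.44 (SE 0.45, edgeR adjusted p = 0.0761), which did not pass. The 2 of 5 genes called higher compare with 2.69% of the 14180 genes tested, and the 5 of 5 without overlap with 15.2%. The calls of Ppp1r1a and Tmem72 rested on few libraries: without control library 4, in which all 5 were highest, Egf at 2.23 (edgeR adjusted p = 0.0226) and Sorl1 at 1.91 (edgeR adjusted p = 0.00508) were also called and 4 of 5 passed, whereas without either macula densa library of this diet, or without control library 2, none did. Tmem72 also lost its call without control library 1 or 3 of this diet and without either macula densa library of the other diet (edgeR adjusted p = 0.0547 to 0.209 over all 7). With only these 6 libraries in the fit, 0 of 5 passed, and Slc12a1 lost its call too.

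On low salt with enalapril the distance between the cell types was smaller for each of the 5 genes, and the Umod libraries of the 2 cell types overlapped. The interaction of cell type and diet was called for none of them. None of the 5 passed the test (0 of 5, against 3.15% of all genes called higher), while Slc12a1 stayed 7.88-fold higher (log2 2.98, SE 0.65, edgeR adjusted p = 0.0201). That call of Slc12a1 was lost without either macula densa library of this diet or without its control library 2 or 4 (edgeR adjusted p = 0.0541 to 0.122). Libraries did not overlap for 4 of 5, against 15.3% of all genes.

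Umod stood at 418, 113, 388 and 35.4 CPM in the 4 control cell libraries and at 165 and 109 CPM in the macula densa libraries. The macula densa libraries lay inside a control range that spanned 11.8-fold. The log2 fold change was -0.80 (SE 0.90, edgeR adjusted p = 0.615), and its sign depended on the libraries compared. The sample descriptions give 4 macula densa libraries a number that 1 control cell library of the same diet also carries, without saying what it marks. Between such libraries Umod was higher in macula densa cells by 0.54 and 1.61 (log2) on low salt with enalapril and by 2.86 and 1.55 on the control diet. A fit over these 8 libraries with that number as a block turned Umod on low salt to 1.08 (SE 0.35), which did not pass (edgeR adjusted p = 0.0725). Egf stood at 55.1, 126, 69.7 and 92.3 CPM in control cells and at 152 and 134 CPM in macula densa cells, just above the highest control, with a log2 fold change of 0.74 (SE 0.66, edgeR adjusted p = 0.517).

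Ppp1r1a stood at 9.91, 16.4, 17.6 and 8.65 CPM in control cells and at 52.5 and 61.0 CPM in macula densa cells, far outside the control range. Its log2 fold change of 2.13 (SE 0.61) fell just short of the threshold (edgeR adjusted p = 0.0534), and it passed without control diet control library 1 or 4 (0.021 and 0.0164). Tmem72 stood at 47.4, 25.7, 68.7 and 20.95 CPM against 164 and 153 CPM, again without overlap, with a log2 fold change of 1.96 (SE 0.67, edgeR adjusted p = 0.0935). Sorl1 stood at 89.8, 54.4, 97.9 and 47.1 CPM against 106 and 132 CPM, with a log2 fold change of 0.72 (SE 0.46, edgeR adjusted p = 0.345).

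Averaged over both diets, the 3 signature genes Ppp1r1a, Tmem72 and Sorl1 were higher in macula densa cells and the 2 secreted genes were not called. Ppp1r1a was 5.44-fold higher (log2 2.44, SE 0.43, edgeR adjusted p = 0.0024) and Tmem72 5.01-fold higher (log2 2.32, SE 0.47, edgeR adjusted p = 0.00559), and both passed under each of 20 alternative settings or left-out libraries. Sorl1 was 2.11-fold higher (log2 1.08, SE 0.32, edgeR adjusted p = 0.0311). That call was lost in 9 of 20 alternatives, each of which left out a library, with adjusted p-values of 0.0509 to 0.126: every macula densa library, control diet control libraries 1, 2 and 3, and low salt control libraries 2 and 4. Egf was 2.28-fold higher (log2 1.19, SE 0.46, edgeR adjusted p = 0.088), and was called without control diet control library 4 (1.48, edgeR adjusted p = 0.0158). Umod differed by 0.40 (SE 0.61, edgeR adjusted p = 0.691), and by 1.64 (SE 0.25, edgeR adjusted p = 0.00115) in the fit over 8 libraries blocked by the shared number. That blocked fit called all 5 genes higher, beside 1364 of the 13692 genes it tested. In the main fit, the 3 of 5 called higher compare with 7.48% of all genes, and the same 3 of 5 whose libraries did not overlap with 4.31%.

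**Figure D2:**
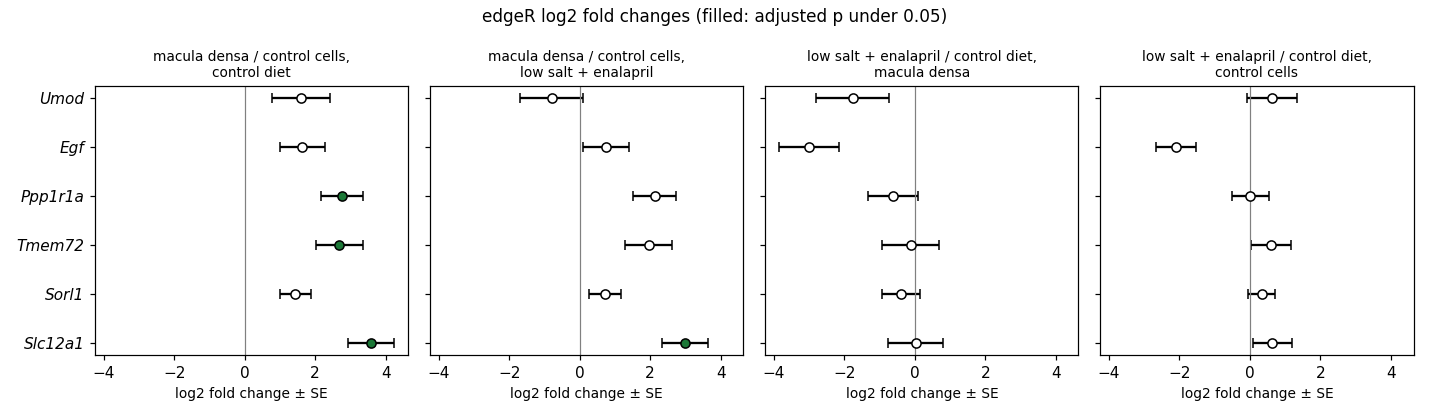
Log2 fold change ± SE of the 5 genes and Slc12a1 in the cell type comparison on each diet and in the diet comparison within each cell type; filled points passed an edgeR adjusted p of 0.05. Ppp1r1a, Tmem72 and Slc12a1 lie farthest to the right between cell types, and Egf farthest to the left between diets, where no point is filled.

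To ask whether the 5 genes kept pace with the cotransporter of the segment, each was expressed as counts per count of Slc12a1 in the same library. Per Slc12a1 transcript, the averaged estimates of all 5 genes were lower in macula densa than in control cells, least so for Ppp1r1a and Tmem72. This measure mixes the genes with the rise of its denominator: since Slc12a1 itself was 9.72-fold higher in macula densa cells, 98.5% of the 14179 genes compared were called lower, so that the 3 of 5 called lower is below the background and is no result about these genes.

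Umod gave 1.26, 0.924, 0.809 and 1.05 counts per Slc12a1 count in control cells on the control diet, 1.90, 0.585, 0.903 and 0.247 on low salt with enalapril, 0.226 and 0.261 in macula densa cells on the control diet, and 0.0881 and 0.0540 on low salt with enalapril. All 4 macula densa ratios except that of the second control diet library lay below every control ratio. The averaged log2 difference was -2.70 (SE 0.60, limma adjusted p = 2.39e-05). Egf gave a mean of 2.24 ± 0.121 (SD, n = 4) in control cells on the control diet, the tightest ratio of the 5 there, although its CPM spanned 8.22-fold between the same libraries. In macula densa cells on that diet it gave 0.596 ± 0.110 (SD, n = 2).

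Sorl1 gave 0.279 to 0.723 counts per Slc12a1 count in control cells on the control diet, against 0.0785 and 0.0851 in macula densa cells. The averaged difference was -2.11 (SE 0.59, limma adjusted p = 0.000593) for Egf and -2.37 (SE 0.59, limma adjusted p = 0.000146) for Sorl1. Ppp1r1a gave 0.0681 to 0.0981 in control cells and 0.0460 and 0.0461 in macula densa cells on the control diet, and Tmem72 0.120 to 0.202 against 0.0865 and 0.0949. Their averaged differences of -0.90 (SE 0.61, limma adjusted p = 0.146) and -0.94 (SE 0.60, limma adjusted p = 0.12) did not pass.

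With a denominator of 3 genes of salt transport, the mean log2 level of Slc12a1, Kcnj1 and Bsnd, of which the last 2 are also made in other distal segments, the ratios of Umod and Sorl1 remained called. The log2 difference was -1.55 for Umod (SE 0.61, limma adjusted p = 0.0159) and -1.23 for Sorl1 (SE 0.58, limma adjusted p = 0.0425), against 92.7% of all genes called lower. Egf stood at -0.97 (SE 0.57, limma adjusted p = 0.102). Ppp1r1a and Tmem72 turned to positive values of 0.24 (SE 0.59, limma adjusted p = 0.692) and 0.21 (SE 0.58, limma adjusted p = 0.727). A change of denominator moves every gene of a library by the same amount. The order of the 5, with Umod lowest and Ppp1r1a and Tmem72 highest, was therefore bound to be the same on both denominators.

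**Figure D3:**
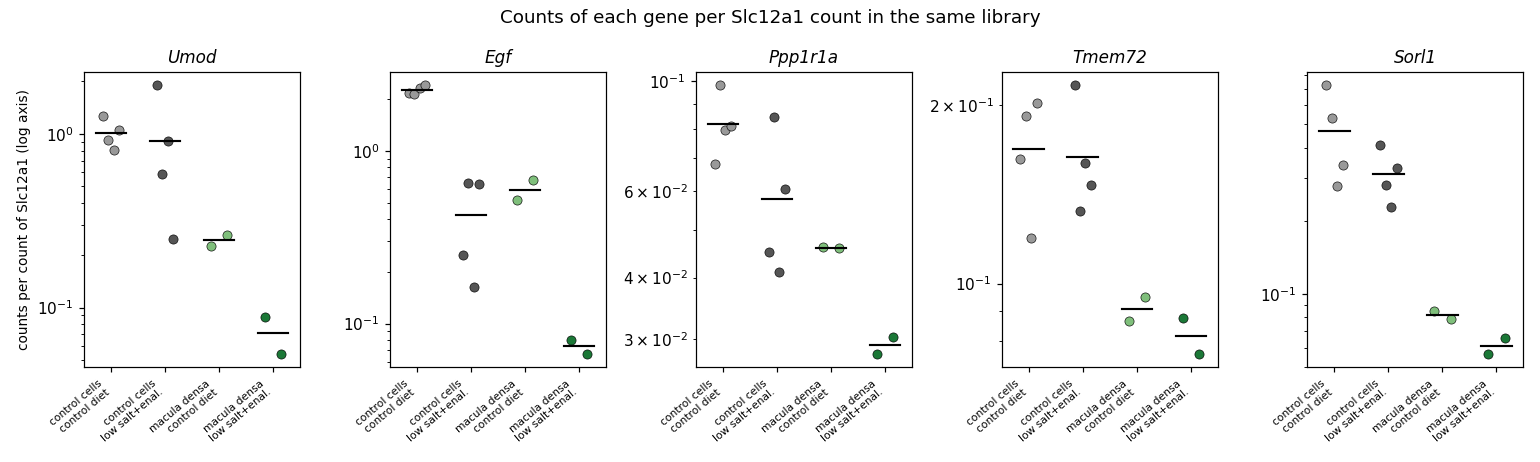
Counts of each gene per count of Slc12a1 in the same library, on a log axis that differs between panels; points are libraries and bars are group means. The Egf ratio in control cells on the control diet is tight, from 2.14 to 2.39, and lies above every library of the other 3 groups.

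Low salt with enalapril was accompanied by lower Egf message in both cell types, but neither difference passed the main test. In macula densa cells Egf was 7.99-fold lower and in control cells 4.29-fold lower. Uromodulin was lower in treated macula densa cells, and Tmem72 and Slc12a1 hardly differed there.

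In macula densa cells, Egf stood at 916 and 1365 CPM on the control diet and at 152 and 134 CPM after treatment. The groups were separated by a wide gap, and the log2 fold change was -3.00 (SE 0.84, unadjusted p = 0.00375, edgeR adjusted p = 0.275). Umod stood at 399 and 528 CPM and then at 165 and 109 CPM, also without overlap, with a log2 fold change of -1.76 (SE 1.03, edgeR adjusted p = 0.553). Ppp1r1a stood at 81.5 and 93.2 CPM and then at 52.5 and 61.0 CPM, with a log2 fold change of -0.62 (SE 0.71, edgeR adjusted p = 0.784). Sorl1 differed by -0.38 (SE 0.54), Tmem72 by -0.12 (SE 0.80) and Slc12a1 by 0.03 (SE 0.78), whose sign depended on the scaling.

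Libraries of 4 of 5 genes lay lower without overlap, against 21.8% of all genes. Of 14180 genes, 0 were called in this comparison by edgeR (0%), where 1594 (11.2%) had an unadjusted p under 0.05, and DESeq2 called 61. Egf was among those called by DESeq2 (log2 -2.97, adjusted p = 0.0391, over a range of 6.47e-05 to 0.529 in all alternatives). With only the 4 macula densa libraries in the fit, edgeR called both Egf (log2 -2.98, adjusted p = 6.47e-05) and Umod (log2 -1.74, adjusted p = 0.00271).

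In control cells, Egf stood at 89.9, 127, 512 and 739 CPM on the control diet and at 55.1, 126, 69.7 and 92.3 CPM after treatment. The 2 lower control diet libraries overlapped the treated ones. The log2 fold change was -2.10 (SE 0.57, unadjusted p = 0.00318, edgeR adjusted p = 0.467), and DESeq2 gave -2.09 (adjusted p = 0.0331, over a range of 0.0331 to 1 in all alternatives). The other 4 genes had log2 fold changes of 0.01 for Ppp1r1a (SE 0.52), 0.34 for Sorl1 (SE 0.38), 0.60 for Tmem72 (SE 0.58) and 0.64 for Umod (SE 0.71), with edgeR adjusted p-values of 0.967 to 0.999. The sign for Ppp1r1a changed with the scaling. None of the 5 was called (0 of 5, against 0.00705% of all genes), where 914 genes had an unadjusted p under 0.05 (6.45%) and DESeq2 called 64.

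The separation in control cells was sharper per Slc12a1 transcript. Egf gave 2.14 to 2.39 counts per Slc12a1 count on the control diet and 0.162 to 0.648 after treatment, so that the groups did not overlap, which held for 1.28% of all genes in that direction. The log2 difference of the ratio was -2.63 (SE 0.68, unadjusted p = 0.000204), but it failed the correction over all genes (limma adjusted p = 0.313). The other 4 ratios overlapped between diets. In macula densa cells the Egf ratio went from 0.518 and 0.674 to 0.0808 and 0.0666, a log2 difference of -3.01 (SE 0.96, limma adjusted p = 1).

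Other measures were read beside Egf. The 13 mitochondrially encoded protein-coding genes, which vary with the state of the cells and their RNA, summed to 14800 and 17900 CPM in macula densa cells on the control diet and to 7780 and 8990 CPM after treatment. In control cells the sums ran from 5730 to 17000 CPM and from 4420 to 8600 CPM. None of the 13 was called between diets (0 of 13 in each cell type), with median log2 fold changes of -1.04 and -0.71. The sum of the 7 distal convoluted and connecting tubule markers was not lower in treated macula densa cells, at 485 to 587 CPM against 324 to 540 CPM. Of these, Slc12a3, the thiazide-sensitive cotransporter, stood at 53.9 and 116 CPM and then at 51.3 and 75.5 CPM there, with overlap, and the magnesium channel Trpm6 at 7.02 ± 0.209 CPM (SD, n = 2) and then 7.26 ± 0.295. Pvalb, a marker of the early part of that segment, was at 0.923 and 1.14 CPM in macula densa cells on the control diet. In control cells on that diet it stood at 0.188 to 2.17 CPM, and it had no count in any of the 6 treated libraries. Calb1, also of this list, stood in macula densa cells at 15.3 and 16.3 CPM on the control diet and at 2.68 and 10.3 CPM after treatment. Its log2 fold change was -1.26 there (SE 0.98, edgeR adjusted p = 0.662) and -1.71 in control cells (SE 0.67, edgeR adjusted p = 0.697). The sum of the 7 markers thus does not speak for each of them. The proximal tubule markers (8 of 8 in the table) went from sums of 121 to 197 CPM to sums of 37.7 to 83.5 CPM in macula densa cells. In the same cells the endothelial sums went from 23.5 to 161 CPM to 13.3 to 16.3 CPM. The podocyte sums there went from 14.9 to 138 CPM to 4.43 to 13.2 CPM. The part of the mitochondrial, proximal tubule, endothelial and podocyte sums and of Pvalb and Calb1 in the Egf or Umod difference was not tested.

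The diet differences were set against each other by the interaction of cell type and diet, and none of the 5 genes was called (0 of 5, against 0% of all genes in edgeR; 7.03% had an unadjusted p under 0.05 and DESeq2 called 13 genes). The difference, macula densa minus control cells, was -2.40 for Umod (SE 1.25, unadjusted p = 0.0786, edgeR adjusted p = 0.744). For Egf it was -0.90 (SE 0.96, edgeR adjusted p = 0.879), and for Ppp1r1a, Tmem72 and Sorl1 it lay between -0.73 and -0.63. All 5 were thus on the negative side without passing the test. That sign was not particular to them. It was shared by Slc12a1 at -0.60 (SE 0.95), and by 10 of 16 transport and 13 of 16 identity genes of the lists described next. The median over all genes was -0.01.

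The wider thick ascending limb programme was read from 2 lists, one of transport genes and one of identity genes. Both were compared with the mixed control cells, so they do not show the level relative to the limb itself. Averaged over both diets, 9 of 16 transport genes were higher in macula densa cells and none lower, against 7.48% and 13.9% of all genes, with a median log2 fold change of 1.42 against -0.06 over all genes. After Slc12a1 at 3.28 (SE 0.46) came the prostaglandin receptor Ptger3 at 2.81 (SE 0.46), the calcium-sensing receptor Casr at 2.73 (SE 0.44) and the tight junction protein Cldn16 at 2.41 (SE 0.60). Among the others that passed were Cldn10 at 1.91, the chloride channel subunit Bsnd at 1.88 and the sodium pump regulator Fxyd2 at 1.82. The potassium channel Kcnj1, which recycles potassium for NKCC2, stood at 1.20 (SE 0.42, edgeR adjusted p = 0.059). Cldn19, the partner of Cldn16, was at 0.16 (SE 0.25), and the kinase adaptor Cab39l at 0.08 (SE 0.24). Ppp1r1a and Tmem72, at 2.44 and 2.32, lay beside Cldn16 in this order, whereas Umod at 0.40 lay between Stk39 at 0.68, a kinase of NKCC2, and Cldn19. The place of Cldn16 rested on low levels, with means of 0.769 and 0.932 CPM in the control cell groups. In macula densa cells it stood at 2.66 ± 0.853 CPM on the control diet and 7.10 ± 7.60 CPM after treatment (SD, n = 2). On neither diet alone did Cldn16 pass (edgeR adjusted p = 0.225 and 0.0517).

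Of 16 identity genes, 7 were higher and none lower, against the same 7.48% and 13.9% of all genes, with a median of 0.88. The largest were the oxidase Enox1 at 3.57 (SE 0.40) and the homeobox factors Irx1 at 3.37 (SE 0.27) and Irx2 at 3.28 (SE 0.25). Slc5a3, an inositol transporter, at 0.00 (SE 0.51) and creatine kinase Ckb at -0.27 (SE 0.33) did not pass. These averages joined opposite signs on the 2 diets, none of which passed alone. Slc5a3 stood at 1.28 (SE 0.69) on the control diet and at -1.28 (SE 0.76) on low salt with enalapril. Ckb stood at 0.76 (SE 0.43) and -1.30 (SE 0.51). On the control diet alone, 4 of 16 transport genes and 4 of 16 identity genes passed as higher, against 2.69% of all genes, and on low salt with enalapril 3 and 4, against 3.15%. In the diet comparisons, 0 of 16 of either list passed in either cell type.

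**Figure D4:**
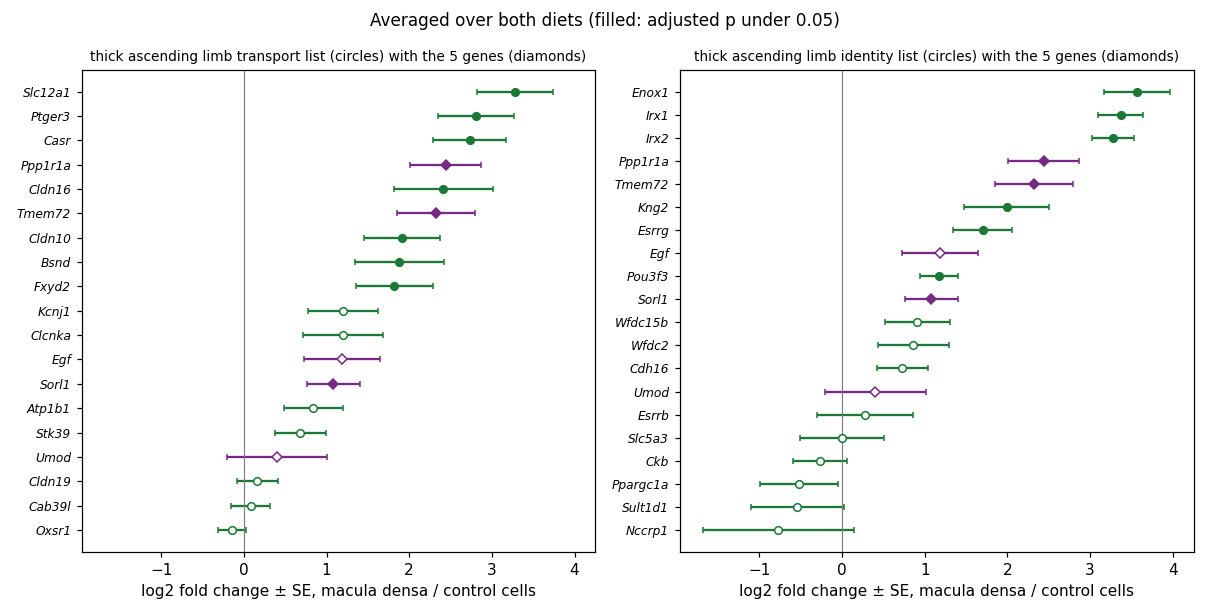
Log2 fold change ± SE, macula densa over control cells and averaged over both diets, for genes of the transport list (left) and of the identity list (right), with the 5 genes as diamonds in both; filled symbols passed an edgeR adjusted p of 0.05. Ppp1r1a and Tmem72 sit near the top of both orders, Egf and Sorl1 in the middle, and Umod toward the lower end.

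Genes that work with each of the 5 were read the same way. Among relatives and processing enzymes of uromodulin, 1 of 8 tested genes passed as higher in macula densa cells and 3 passed as lower, against 7.48% and 13.9% of all genes, and the median log2 fold change was 0.27. Higher was the surface protease Tmprss2 at 1.37 (SE 0.41, edgeR adjusted p = 0.0315). The 3 lower genes share a protein domain with uromodulin or cut proteins, and are made in other cells too: endoglin (Eng, -5.06, SE 1.05), an endothelial receptor, the betaglycan Tgfbr3 (-1.53, SE 0.21) and the protease Bace2 (-3.86, SE 0.74). Hepsin (Hpn), the protease that releases uromodulin and chosen after its values were seen, stood at 11.2 and 10.5 CPM in the mean of the macula densa groups and at 5.10 and 7.59 CPM in the control cell groups, a log2 fold change of 0.80 (SE 0.31, edgeR adjusted p = 0.0835).

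In the epidermal growth factor family, 2 of 12 tested genes were higher and 4 lower, against 7.48% and 13.9% of all genes, with a median of -0.25. The receptor Erbb4 was higher by 2.61 (SE 0.37, edgeR adjusted p = 0.000666) and the coreceptor Erbb2 by 0.87 (SE 0.27, edgeR adjusted p = 0.0373). Egfr, the receptor of epidermal growth factor itself, was lower by a log2 fold change of -2.02 (SE 0.36, edgeR adjusted p = 0.00276), with 3.71 and 1.63 CPM in the macula densa groups against 10.4 and 9.38 CPM in the control cell groups. The ligands betacellulin (Btc, -2.14, SE 0.56) and heparin-binding Hbegf (-2.01, SE 0.33) were lower as well. The shedding proteases Adam10 at -0.20 and Adam17 at -0.18 did not pass. The endothelial and podocyte sums given above differ between the cell types, and their part in these lower values was not tested.

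Around Ppp1r1a, 1 of 10 tested genes of protein phosphatase 1 and its regulators was higher and none lower, with a median of 0.02. This share is near the 7.48% of all genes called higher and is no result about the group. The called gene was Prkaca, a catalytic subunit of protein kinase A, at 0.49 (SE 0.16, edgeR adjusted p = 0.0483). On the control diet alone it stood at 0.00 (edgeR adjusted p = 0.997) and on low salt with enalapril at 0.99 (edgeR adjusted p = 0.026), and its macula densa and control libraries overlapped when both diets were pooled. The phosphatase subunit Ppp1ca at -0.02 (SE 0.16) and the calcineurin subunit Ppp3ca at 0.05 (SE 0.21) hardly differed. Around Sorl1, 1 of 11 tested genes of the VPS10 receptors and the retromer was higher and 2 lower, with a median of 0.00. These shares, too, are near the 7.48% and 13.9% of all genes. The sorting adaptor Gga2 was higher by 2.03 (SE 0.21, edgeR adjusted p = 6.59e-05), against 1.08 for Sorl1. The amyloid precursor protein App, a cargo of the Sorl1 receptor, had a log2 fold change of -0.86 (SE 0.16, edgeR adjusted p = 0.00304) and the adaptor Gga1 one of -0.67 (SE 0.20, edgeR adjusted p = 0.0333). In neither diet comparison did a gene of these 4 lists pass.

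The 5 genes fell into different patterns over the 12 libraries, described here by Pearson correlations of log2 CPM among 6687 genes; the points share cell type and diet groups. Tmem72 (0.98), Ppp1r1a (0.97) and Sorl1 (0.93) followed Slc12a1, and within the 8 control cell libraries alone the values were 0.97, 0.92 and 0.94. Umod followed it less, with 0.60 over all 12 and 0.79 in control cells. Egf had 0.48 and 0.24.

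The genes most like each one differed accordingly. For Ppp1r1a they were the sodium channel subunit Scn4b (0.981), Casr (0.980) and Slc12a1 (0.971), and for Tmem72 they included Emb (0.987), a partner of monocarboxylate transporters, and the phosphatase subunit Ppp2r3a (0.986). For Sorl1 they included Mxi1 (0.975) and Ivns1abp (0.973). For Egf they were the mitochondrially encoded mt-Nd2 (0.955), mt-Cytb (0.952) and mt-Nd4l (0.937). For Umod they were Epb41 (0.928), Evc2 (0.915) and Bag4 (0.881), none of which is in the lists above.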

How the data were processed

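The deposited table held the authors' estimated counts (expected counts) per gene, 15% of which were not whole numbers; they were rounded. Per the submitters' processing notes, STAR 2.61 and Partek were used with the mouse build mm10. Libraries were made with a strand-keeping kit for low amounts of total RNA, per the labels' protocols. All genes were fitted over 12 libraries with edgeR 4.0.16 (R 4.3.3) by its quasi-likelihood test, with TMM scaling, filterByExpr (count minimum 10, total minimum 15) and a coefficient for each group. Adjusted p-values are Benjamini-Hochberg over 14180 genes, called under 0.05. Ratios were fitted with limma 3.58.1 on log2 CPM (prior count 2). DESeq2 1.42.0, other scalings, filters and denominators, replicate blocks and left-out libraries were alternatives. Ratio comparisons other than the average over diets and the sums of mitochondrially encoded genes and a 3-gene ratio denominator were added after the data were seen. Annotation was GENCODE M21 (GRCm38; 23351 of 23378 symbols matched), and upstream sequence RefSeq's for GRCm38.p6. No pair of libraries within the same group was a repeat deposit, and 0 columns lacked a sample. The scripts were tested on simulated data. The 5 genes and all 6 pathway and 11 marker lists were chosen with earlier results of these data known. The genes named are the 5, transport genes, up to 3 called genes in each direction and the 2 least changed of each other list, and the 3 most correlated genes; a few genes that these rules name are not reported here, or shown in the plots.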

Additional observations from a re-analysis of the deposited data

How the results depend on the processing

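Of 690 alternative values for 35 results of the 5 genes, 629 kept direction and side of the threshold, 22 fell short of it, 30 passed it and 9 reversed, and the cause of these moves was not tested. For genes called between cell types on the control diet (938), on low salt with enalapril (1031) and averaged (3027), counts ranged with a library left out from 122 to 2490, 194 to 1894 and 1680 to 3968. The lowest came without the second macula densa library of the control diet, of the treated diet and of the control diet, and the highest without control diet control library 4. Of the 5 genes, 0 to 4, 0 to 2 and 2 to 4 were then called. In the diet comparisons, 0 to 1 genes were called in macula densa cells and 1 to 5 in control cells, and none of the 5. A minimum mean of 5 CPM gave 622 and 1874 genes (control diet, averaged), 1 of the 5 on low salt, and 6624 genes in the ratio. DESeq2 called 1879 and 1757 genes between cell types on the 2 diets, with 2 of the 5 on low salt, and 61, 64 and 13 genes for diet in macula densa cells, diet in control cells and their difference, with 1 of the 5 in each cell type. Fits of only the groups compared called 468 genes on the control diet with 0 of the 5, 2 of the 5 on low salt, 105 genes with 2 of the 5 for diet in macula densa cells and 0 genes in control cells. With library totals alone, the median of all genes moved from -0.05, -0.06 and -0.06 to 0.12, 0.16 and 0.14 between cell types, the split of higher and lower calls from 382 and 556, 446 and 585, and 1061 and 1966 to 542 and 328, 736 and 392, and 1827 and 1450, and 2 of the 5 were called on low salt. With the 3-gene denominator, added after the data were seen, Ppp1r1a at 0.24 and Tmem72 at 0.21 reversed and 2 of the 5 ratios were called. The denominator first planned is not reported here. Ppp1r1a between diets in control cells reversed to -0.08 with library totals alone, to -0.03 without a filter and ranged from -0.31 to 0.54 with a library left out; Slc12a1 between diets in macula densa cells gave -0.02, -0.09 and -0.11 to 0.05. Neither the title numbers nor the description numbers were taken to pair the libraries (correlations of deviations from -0.23 to 0.25 and from -0.04 to 0.23). Each macula densa group has 2 libraries, whose deviations from their mean mirror each other. These correlations therefore cannot decide whether libraries were paired. A replicate block by title number called 378, 396 and 1908 genes, 1 of the 5 on low salt and 0 genes for diet in control cells. A replicate block by description number over 8 libraries called 2217 and 2192 genes on the 2 diets and 3630 averaged, of 13692 tested. Of the 5 genes it called 5, 3 and 5, and it reversed Umod on low salt to 1.08, which did not pass (edgeR adjusted p = 0.0725). Depth limits low rows most: in the shallowest library 1 count was worth 0.235 CPM before scaling. No group of 4 libraries held an outlying value in the 22 sets checked.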
